A study of Mus musculus with 9 samples.

Results

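Sox2ot, Dlx6os1, Six3os1, Snhg11, Malat1 and Neat1, 6 neural and nuclear long noncoding RNAs of the mouse, were followed across fibroblasts, fibroblasts converted toward GABAergic interneurons and cortical interneurons. The set listed 8 symbols and was chosen by name. An identifier in the count table carried the symbol for 5 of them. Sox2ot was matched by position: 100% of the 8632 exon bases of its entry (ENSMUSG00000090828) lay inside Sox2ot exons of GENCODE vM21 and covered 74.5% of them. Miat and Rmst were not analysed here. The 6 RNAs were drawn from 37224 genes in the table.

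The study compared 3 groups of 3 libraries, all from C57BL/6 mice. MEF libraries (replicates 1 to 3) came from passage 0 primary fibroblasts of E13.5 embryos, detached with trypsin and not sorted. Their growth label names MEF medium followed by a neuronal inducing medium, and no time. The iGABA libraries (replicates 4 to 6) came from passage 0 MEFs at 14 days in vitro (DIV) of reprogramming, after 2 DIV in MEF medium, sorted for GFP. Sox2, Dlx5 and Lhx6 are known to be among the factors delivered in this conversion, and the counts do not separate delivered from endogenous transcripts. GAD67 libraries (replicates 7 to 9) came from primary E18.5 cortical interneurons, GAD67-GFP+ and sorted. The sources used here do not state what drives GFP in the converted cells, or whether replicates came from separate cultures or animals. The p-values therefore measure only scatter among these libraries, which may be technical. Xist, the RNA of the inactive X chromosome, ran from 3.76 to 1042.8 CPM within GAD67, from 189 to 404 within MEF and from 1227.2 to 1307.1 within iGABA, so the GAD67 libraries were not repeats of 1 RNA pool.

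Long noncoding RNAs are transcripts with no long conserved reading frame, and many stay in the nucleus. Sox2ot, Dlx6os1 (also called Evf2) and Six3os1 are transcribed from the neighbourhoods of the transcription factor genes Sox2, Dlx5 and Dlx6, and Six3, which act in progenitors and the developing forebrain. Malat1 is an abundant RNA of nuclear speckles, bodies rich in splicing factors. Neat1 is the scaffold of paraspeckles, nuclear bodies that assemble around it, and Snhg11 is a host gene of small nucleolar RNAs that is known from brain.

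The 3′ ends of Malat1 and Neat1 are shown because these RNAs are not polyadenylated there: the primary transcript is cut, and U-rich motifs fold with an A-rich tract into a triple helix that protects the end. In GRCm38 the Malat1 stretch lies at chr19:5795982-5796067, minus strand, positions 6606 to 6691 of the transcript counted from its 5′ end and 292 bases before the annotated end. The Neat1 stretch lies at chr19:5824708-5824799, minus strand, and forms positions 20680 to 20771, the end of the annotated transcript. Capitals mark the U-rich motifs 1 and 2 and the A-rich tract, written as DNA. The same 3 strings were searched for in both RNAs, so the capitals are alike by choice, and bases beside them differ.
Malat1 3′ end: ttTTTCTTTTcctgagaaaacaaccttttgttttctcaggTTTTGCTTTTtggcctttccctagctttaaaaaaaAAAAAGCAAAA
Neat1 3′ end: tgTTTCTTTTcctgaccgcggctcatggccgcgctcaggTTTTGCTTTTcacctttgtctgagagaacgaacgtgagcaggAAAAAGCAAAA

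Promoters are shown for 3 members with unlike patterns over the groups (Snhg11 highest in iGABA, Dlx6os1 low there, Six3os1 at a few reads there), as 250 bases before and 50 bases after the RefSeq start (GRCm38.p6): Snhg11 at chr2:158375463-158375762 on the plus strand, Dlx6os1 at chr6:6869484-6869783 and Six3os1 at chr17:85618347-85618646 on the minus strand. RefSeq promoters were found for 4 of the 6 members. The RefSeq start used for Six3os1 lies inside the first exon of the counted entry, which begins at 85619411. Its window therefore lies within that exon and not before the start of the entry. Capitals mark the E-box CAGCTG, the homeodomain core TAATTA and the Sox site AACAAAG, searched on both strands. These letter strings do not overlap one another.
Snhg11 promoter: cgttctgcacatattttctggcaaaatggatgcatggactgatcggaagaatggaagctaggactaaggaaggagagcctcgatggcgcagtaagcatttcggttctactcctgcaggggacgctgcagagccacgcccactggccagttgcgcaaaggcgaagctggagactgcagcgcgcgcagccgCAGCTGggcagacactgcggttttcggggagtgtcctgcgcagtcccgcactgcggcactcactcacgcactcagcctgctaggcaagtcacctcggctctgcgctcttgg
Dlx6os1 promoter: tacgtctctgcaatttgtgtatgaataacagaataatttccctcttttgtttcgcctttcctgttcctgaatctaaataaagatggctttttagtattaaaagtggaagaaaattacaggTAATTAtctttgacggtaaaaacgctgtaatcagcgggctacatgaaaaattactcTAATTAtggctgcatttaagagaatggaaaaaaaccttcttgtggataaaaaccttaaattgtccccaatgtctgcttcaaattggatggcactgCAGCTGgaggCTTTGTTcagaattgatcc
Six3os1 promoter: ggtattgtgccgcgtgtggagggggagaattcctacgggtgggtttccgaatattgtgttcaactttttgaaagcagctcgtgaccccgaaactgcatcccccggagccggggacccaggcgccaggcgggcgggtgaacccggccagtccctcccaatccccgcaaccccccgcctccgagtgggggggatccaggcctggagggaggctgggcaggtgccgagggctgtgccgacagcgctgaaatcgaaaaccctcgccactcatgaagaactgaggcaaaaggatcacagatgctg
The Dlx6os1 window held 1 CAGCTG, 2 TAATTA and 1 AACAAAG (as its reverse complement), the Snhg11 window held 1 CAGCTG, and the Six3os1 window held none of the 3. Of 32851 RefSeq promoters of the same length, 16.3% held CAGCTG, 5.29% TAATTA and 5.85% AACAAAG. These matches describe letters in the windows only.

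Libraries held between 27501521 and 38975523 counts. Levels are given as CPM, counts scaled to a common library total with the trimmed mean of M-values (TMM), and a count of 0 allows up to 3 counts, worth 0.077 to 0.109 CPM by library. Tests were edgeR quasi-likelihood tests with Benjamini-Hochberg adjustment over 18085 genes, called at an adjusted p under 0.05. Summed CPM of 8 GABAergic interneuron markers was 6.97 to 8.82 (MEF), 619 to 630 (iGABA) and 4758.8 to 4986.3 (GAD67). In iGABA the largest of these was Gad1 (405 CPM), Lhx6 (75.5 CPM) is a delivered factor, and Sp9 was lower than in MEF (0.141 against 0.552 CPM, adjusted p = 0.00126 by edgeR). The 8 neuron markers summed to 106 to 110, 781 to 803 and 7280.3 to 7770.2 CPM in the same order. Among them Stmn2 alone was lower in iGABA than in MEF (23.3 against 33.5 CPM, adjusted p = 7.22e-05 by edgeR). Snap25 alone was higher in iGABA than in GAD67 (121 against 102 CPM, adjusted p = 0.00972 by edgeR). The 8 radial glia and astrocyte markers summed to 4379.2 to 5110.3, 224 to 271 and 164 to 171 CPM. Vim was the largest of these (4688.5, 233 and 71.2 CPM). Pax6 averaged 0.0762, 0.0401 and 57.1 CPM, and 4 of the 7 tested were higher and 3 lower in GAD67 than in MEF. For 8 fibroblast markers the sums were 75733.2 to 84144.2, 570 to 839 and 122 to 129. All markers of these lists had counts in each group. The 7 microglia and macrophage markers summed to 340 to 371 CPM for MEF, 0.344 to 0.569 for iGABA (C1qa and Cx3cr1 at 0) and 1.63 to 1.75 for GAD67, and 7 oligodendrocyte lineage markers to 398 to 424, 565 to 579 and 44.9 to 53.5 (Olig2 at 0 in MEF and iGABA). The sums were 6.28 to 6.88, 4.38 to 4.6 and 39.9 to 66.3 CPM for 7 glutamatergic neuron markers (Neurod6 and Neurod2 at 0 in MEF), and 13.8 to 16.3, 2.01 to 4.66 and 11.7 to 40.6 CPM for 6 endothelial markers (Cldn5 at 0 in MEF and Cdh5 at 0 in iGABA). Mitochondrial genes took 0.908 to 1.07%, 4 to 4.36% and 1.16 to 1.4% of counts. The part of these marker and mitochondrial differences in the results below was not tested. In bulk samples, fewer cells of a type and less RNA per cell cannot be told apart.

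Overlap with coding genes was checked first, since 3 of the 6 members share their span with one. Sox2ot (chr3:34104438-34682619, plus strand, 19 exons) runs across the single-exon gene Sox2 on the same strand, and shares 0 exon bases with it. Dlx6os1 (chr6:6820189-6869533, minus strand, 4 exons) lies opposite Dlx6 and also shares 0 exon bases. Six3os1 (chr17:85600203-85619411, minus strand, 5 exons) lies opposite Six3, and 106 of its exon bases (0.794%) face Six3 exons. Snhg11 (chr2:158375638-158386145, plus strand, 4 exons), Malat1 (chr19:5795690-5802671, minus strand) and Neat1 (chr19:5824708-5845478, minus strand), each of the last 2 with 1 exon, overlapped no coding gene. Snhg11 itself is typed protein-coding in vM21 and as a long noncoding RNA in RefSeq. The positions are those of the count table, on mm10.

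**Figure D1:**
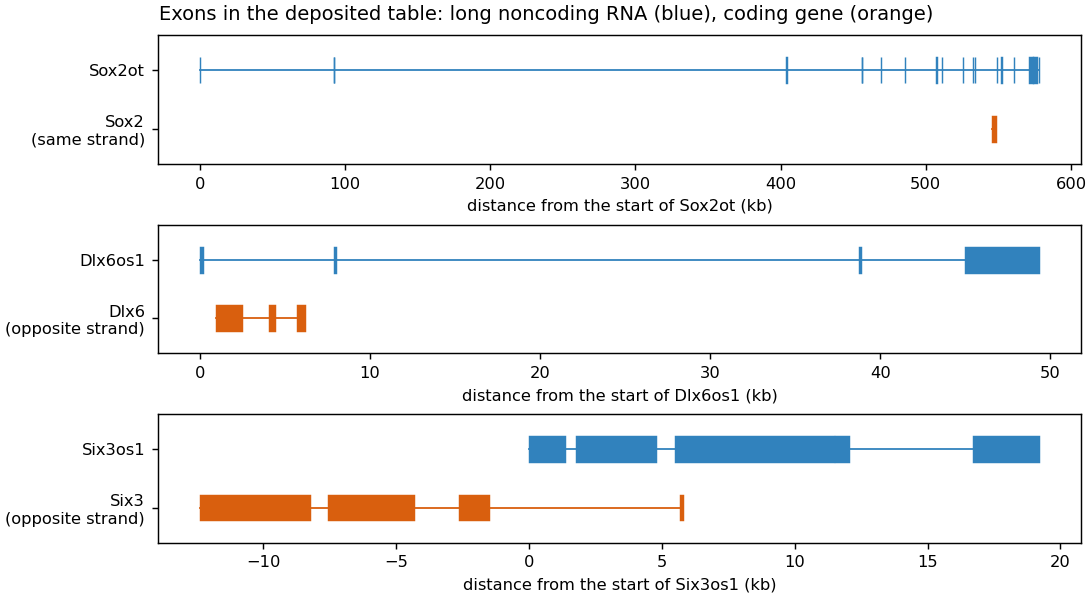
Exons (boxes) and spans (lines) of Sox2ot, Dlx6os1 and Six3os1 with the overlapping coding gene below each, by distance in kb from the start of the noncoding RNA. Sox2 lies on the same strand inside a Sox2ot intron, and Dlx6 and Six3 lie on the opposite strand, where only Six3os1 shares exon bases (106).

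The counting separated strands. Among 109 genes lying wholly inside exons of an opposite-strand gene with at least 1000 counts, the median count per base was 1.33% of the host's. Among 215 genes inside same-strand exons it was 98.9%. An entry of 425 bases inside and opposite to Malat1 held 7 to 27 counts per library, 0.669% of the Malat1 count per base. Levels of the antisense members are therefore given as their own.

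Of the 6 members, 5 were higher and 0 lower in iGABA than in MEF libraries, where 81.9% of all tested genes were called (42.1% higher, 39.7% lower). Against MEF, GAD67 libraries had 4 higher and 1 lower, with 86.9% of all genes called (43.1% higher, 43.8% lower). Between iGABA and GAD67 libraries all 6 were called, 3 higher and 3 lower in iGABA, with 80.6% of all genes called (41.3% higher, 39.3% lower). With library size alone the higher and lower calls over all genes were 9941 and 5283 for iGABA minus MEF, against 7618 and 7188 with TMM. The median log2 difference of all genes was then 0.46, 0.22 and 0.22 in the 3 comparisons, against 0.05, 0.00 and 0.02 with TMM, and the values below use TMM. These comparisons share their libraries, and most genes of the table were called in each, so the counts only describe the members. All 6 members passed the low-count filter, Six3os1 through the GAD67 libraries alone, where it had to be higher. Without Six3os1 the calls of the other 5 were 5 higher and 0 lower, 3 and 1, and 3 and 2 in these comparisons.

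**Figure D2:**
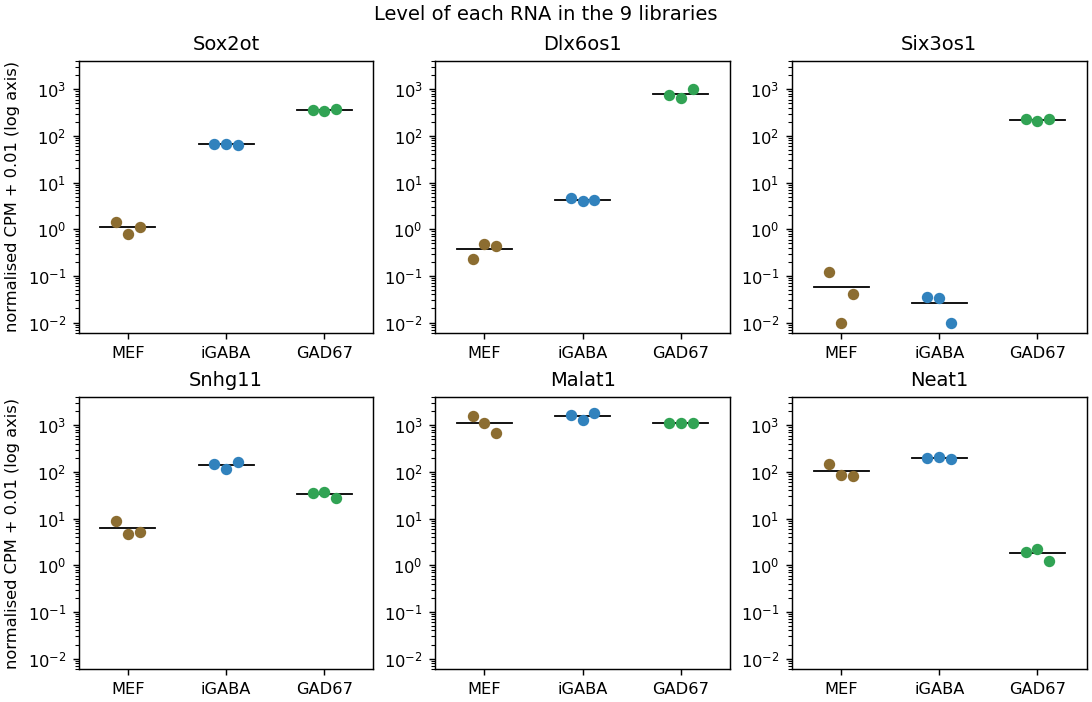
Level of each of the 6 RNAs in CPM (log axis) in every library, with MEF, iGABA and GAD67 libraries side by side and 1 point per library. Sox2ot steps up from MEF to iGABA to GAD67, Snhg11 is highest in iGABA, Neat1 is lowest in GAD67, and Malat1 overlaps between MEF and both other groups.

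Sox2ot, the RNA transcribed across the Sox2 locus, rose in both neuronal groups and was lower in converted cells than in interneurons. Its level was 1.39, 0.789 and 1.12 CPM in the MEF libraries. The iGABA libraries gave 67.5, 66.4 and 62.5 CPM, and the GAD67 libraries 350, 346 and 385 CPM. The 3 groups did not overlap. By edgeR the log2 fold change was 5.90 (SE 0.117, adjusted p = 8.63e-14) for iGABA against MEF and 8.36 (SE 0.116, adjusted p = 2.09e-15) for GAD67 against MEF. Converted cells were 5.5-fold lower than interneurons (log2 -2.46, SE 0.0751, adjusted p = 4.56e-12).

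Sox2, the progenitor transcription factor inside the Sox2ot span, had another order. It averaged 1.13 ± 0.217 CPM in MEF, 1044.2 ± 92.8 in iGABA and 424 ± 15.6 for GAD67 (SD, n = 3). Converted cells were above interneurons (log2 1.30, SE 0.0756, adjusted p = 3.16e-09), and Sox2 is among the delivered factors. Per base of exon, Sox2ot stood at 0.291 ± 0.12 of Sox2 in MEF, 0.0179 ± 0.00128 for iGABA and 0.242 ± 0.00527 for GAD67 (SD, n = 3). The iGABA ratios (0.0165 to 0.0189) lay below the GAD67 ratios (0.237 to 0.247), a log2 gap of -3.76 with an exact two-sided permutation p of 0.1, the smallest that 3 against 3 libraries allow over 20 splits.

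Within Sox2ot, 1 short exon piece held many reads. It is listed as an entry of its own, the conserved RNA family RF01953, at chr3:34638464-34638542 on the plus strand (GRCm38), and is shown whole.
RF01953 piece of Sox2ot: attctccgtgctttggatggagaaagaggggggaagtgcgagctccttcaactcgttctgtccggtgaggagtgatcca
This piece of 79 bases is 0.915% of the exon length. Its counts equalled 12.6 to 14.2% of the Sox2ot count in iGABA and 12.9 to 13.7% in GAD67 libraries, ranges that overlap. In MEF libraries 2, 0 and 0 counts fell on it, against 38, 24 and 37 for Sox2ot. The piece averaged 8.75 ± 0.229 CPM in iGABA and 48.1 ± 1.66 CPM for GAD67 (SD, n = 3). Since same-strand overlaps were counted for both entries, reads over the piece stand in both.

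Dlx6os1, the antisense RNA of the Dlx5 and Dlx6 locus whose promoter is shown above, was abundant in interneurons and low in converted cells. The MEF libraries gave 0.22, 0.46 and 0.423 CPM, from 6, 14 and 14 counts. Converted cells gave 4.65, 3.99 and 4.13 CPM, and interneurons 761, 644 and 1000.8 CPM. No groups overlapped, and the GAD67 libraries were the most spread. By edgeR, iGABA exceeded MEF libraries by 3.50 on the log2 scale (SE 0.321, adjusted p = 3.29e-07), and GAD67 exceeded MEF libraries by 11.05 (SE 0.233, adjusted p = 6.53e-14). Converted cells were 188-fold below interneurons (log2 -7.56, SE 0.176, adjusted p = 3.61e-13).

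Dlx6 and Dlx5, the homeobox genes beside it that act in interneuron development, differed less between the neuronal groups. Dlx6 averaged 0.375 ± 0.293 CPM in MEF, 3.42 ± 0.154 in iGABA and 66.2 ± 1 for GAD67 (SD, n = 3), so that converted cells were 19.4-fold below interneurons (log2 -4.28, adjusted p = 1.71e-11 by edgeR). Dlx5, a delivered factor, averaged 1.87 ± 0.111, 59.1 ± 0.611 and 215 ± 18.8 CPM and was 3.64-fold lower in converted cells (log2 -1.86, adjusted p = 1.57e-11 by edgeR). Per base of exon, Dlx6os1 stood at 0.608 ± 0.0664 of Dlx6 in iGABA and at 5.91 ± 1.38 for GAD67 (SD, n = 3). The iGABA range of 0.56 to 0.684 did not reach the GAD67 range of 4.78 to 7.45, a 9.59-fold gap with an exact two-sided permutation p of 0.1, the smallest possible here. In MEF libraries the counts were too few for a ratio.

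Six3os1, the antisense RNA of Six3, was found in the interneurons and at a few reads elsewhere. The counts were 3, 0 and 1 in MEF, 1, 1 and 0 in iGABA, and 8937, 8005 and 8244 in GAD67 libraries. In CPM the interneurons stood at 228, 212 and 233. The ratio of GAD67 to MEF reads, scaled for depth, was 5093.1 (95% exact interval 1988.9 to 18694.0), and that of GAD67 to iGABA reads was 12815.9 (3547.4 to 105830.5). Such intervals cover counting error only. Six3os1 entered the edgeR fit only through the GAD67 libraries, so its fitted difference from MEF is given as a description: 12.20 on the log2 scale (SE 0.177), which moved to 13.52 without MEF replicate 1. Between iGABA and MEF libraries, the difference did not pass the test (log2 -1.18, 95% interval -3.39 to 1.04, adjusted p = 0.298) and was 0.12 without MEF replicate 1.

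Six3, a homeobox gene of the anterior forebrain and eye, had the same layout. Its mean was 0.0521 ± 0.0468 CPM in MEF, 0.0428 ± 0.0101 in iGABA and 159 ± 7.39 for GAD67 (SD, n = 3). The iGABA and MEF libraries overlapped, and that difference did not pass the test (log2 -0.31, 95% interval -1.90 to 1.28, adjusted p = 0.739 by edgeR). Six3 also entered the edgeR fit only through the GAD67 libraries, where it had to be higher. Its fitted difference between GAD67 and MEF is therefore given as a description: 11.41 on the log2 scale (SE 0.159). In interneurons the antisense RNA reached 0.92 ± 0.0854 of the Six3 level per base of exon (SD, n = 3, range 0.829 to 0.998).

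Snhg11, the small nucleolar RNA host gene with the single CAGCTG above, was highest in converted cells and lowest in fibroblasts. Its MEF levels were 8.67, 4.6 and 5.16 CPM, with replicate 1 the highest. The iGABA libraries gave 146, 115 and 160 CPM and the GAD67 libraries 34.8, 37.2 and 28 CPM. No groups overlapped. By edgeR, iGABA libraries exceeded MEF by 4.53 on the log2 scale (SE 0.201, adjusted p = 1.95e-10) and GAD67 libraries by 2.07 (SE 0.168, adjusted p = 9.29e-08). Interneurons exceeded MEF by 2.45 (SE 0.2, adjusted p = 7.29e-08). The nearest coding genes had other orders of the 3 groups. Lbp, a lipopolysaccharide-binding protein gene 42786 bases before Snhg11, fell to 2.01 and 0.196 CPM in iGABA and GAD67 from 7.36 in MEF libraries (adjusted p = 1.20e-07 and 7.04e-11 by edgeR). Ralgapb, a GTPase-activating protein subunit gene 23703 bases after Snhg11, averaged 86.7, 118 and 149 CPM in MEF, iGABA and GAD67. Like Snhg11, Ralgapb was higher in both neuronal groups than in MEF (adjusted p = 7.32e-06 and 1.83e-08 by edgeR). Unlike Snhg11, it was lower in iGABA than in GAD67 (adjusted p = 9.15e-05 by edgeR).

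The small RNAs listed at the Snhg11 locus are 133 bases each and lie at chr2:158378222-158378354 (Gm25187, inside a Snhg11 exon) and chr2:158379534-158379666 (Gm25129), plus strand, GRCm38. They are shown because they are what a host gene carries, with the closing ACA of their class in capitals.
Gm25187: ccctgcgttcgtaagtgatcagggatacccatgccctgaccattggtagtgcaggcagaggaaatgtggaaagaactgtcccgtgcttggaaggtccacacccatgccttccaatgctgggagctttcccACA
Gm25129: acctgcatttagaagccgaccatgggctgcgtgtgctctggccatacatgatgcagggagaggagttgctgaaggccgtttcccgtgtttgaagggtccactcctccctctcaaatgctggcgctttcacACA
Gm25187 had no count in any MEF library. Its iGABA counts were 7, 8 and 14, and its GAD67 counts 2, 0 and 1. Gm25129 had 0 in MEF, 8, 7 and 6 in iGABA and 3, 3 and 0 in GAD67 libraries. Against a floor of 3 counts over the group, iGABA was at least 7.68-fold and 5.56-fold higher than MEF for Gm25187 and Gm25129. All 133 bases of Gm25187 lie in a Snhg11 exon on the same strand, so its reads cannot be told apart from Snhg11 reads. Gm25129 lies on the same strand outside the Snhg11 exons, where unspliced Snhg11 RNA would also be counted. These folds therefore do not measure the small RNAs apart from Snhg11. Neither entry was among those tested.

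Malat1, the nuclear speckle RNA, was high in all groups. Its MEF levels were 1553.9, 1130.2 and 691 CPM, the iGABA levels 1644.8, 1324.9 and 1801.0, and the GAD67 levels 1137.5, 1105.4 and 1119.8. The MEF libraries spanned a range that took in all 3 GAD67 libraries and 1 iGABA library, and iGABA lay above GAD67 without overlap. By edgeR, iGABA libraries exceeded MEF by 0.50 on the log2 scale (SE 0.211, adjusted p = 0.0436) and GAD67 also by 0.50 (SE 0.211, adjusted p = 0.0425), and each call was lost in 8 of 16 alternatives. The GAD67 minus MEF difference did not pass the test (log2 -0.01, 95% interval -0.46 to 0.45, adjusted p = 0.983). The iGABA excess over MEF was 0.24 without MEF replicate 3, the lowest of the MEF libraries, and 0.80 without replicate 1, the highest.

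Neat1, the paraspeckle scaffold whose 3′ end is shown above, was low in interneurons. MEF levels were 149, 84.5 and 80.9 CPM, with replicate 1 again the highest, and iGABA levels were 194, 204 and 193 CPM. The GAD67 libraries gave 1.92, 2.23 and 1.24 CPM, from 75, 84 and 44 counts. The 3 groups did not overlap. By edgeR, GAD67 libraries fell by 5.85 on the log2 scale against MEF (57.8-fold, SE 0.266, adjusted p = 1.48e-10). iGABA exceeded GAD67 libraries by 6.77 (SE 0.268, adjusted p = 6.15e-11) and MEF by 0.91 (SE 0.184, adjusted p = 4.91e-04).

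A coding neighbour of this pair was compared as well. Frmd8, a FERM-domain protein gene 4224 bases from Neat1, averaged 41.1 ± 0.238 CPM in MEF, 57.1 ± 1.59 in iGABA and 14.1 ± 1.24 for GAD67 (SD, n = 3), 4.05-fold higher in iGABA than GAD67 (log2 2.02, adjusted p = 1.28e-11 by edgeR). Per base, Malat1 exceeded Neat1 by 32.1 ± 7.24 times in MEF, 24.1 ± 4.32 in iGABA and 1975.2 ± 629 for GAD67 (SD, n = 3). The GAD67 ratios (1477.0 to 2681.7) lay above the iGABA ratios (19.4 to 27.8), 80.2-fold apart, with an exact two-sided permutation p of 0.1, the smallest possible. The Neat1 entry spans its long isoform, so a short isoform would be understated per base.

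**Figure D3:**
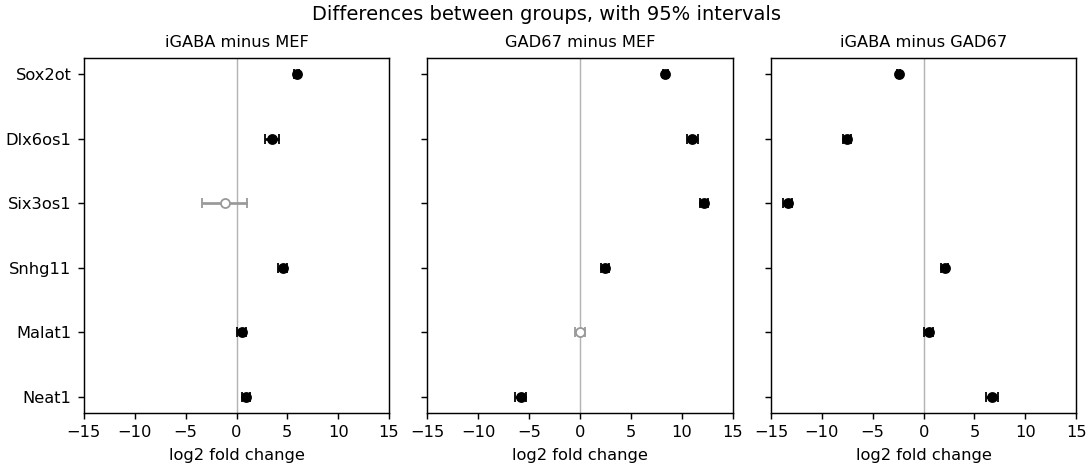
Log2 fold changes of the 6 RNAs in the 3 comparisons, each point the edgeR estimate with its 95% interval. Six3os1 and Dlx6os1 are the farthest below 0 in iGABA minus GAD67 (-13.38 and -7.56), Neat1 is the farthest above 0 there (6.77), and the Malat1 interval for GAD67 minus MEF spans 0.

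Order by level was read per length, as RPKM, which is CPM divided by exon length in kilobases. In MEF libraries Malat1 led with 161 RPKM, followed by Neat1 (5.04), Snhg11 (0.721), Sox2ot (0.127), Dlx6os1 (0.0755) and Six3os1 (0.0035), and the libraries of Sox2ot and Dlx6os1 overlapped. In iGABA the means were 228 for Malat1, 16.5 for Snhg11, 9.47 for Neat1, 7.59 for Sox2ot, 0.873 for Dlx6os1 and 0.00121 for Six3os1, with no overlap between neighbours. In GAD67 libraries Dlx6os1 (165, range 132 to 205) and Malat1 (161, range 158 to 163) overlapped at the top, above Sox2ot (41.7), Six3os1 (16.8), Snhg11 (3.91) and Neat1 (0.0864). Dlx6os1 stood beside Malat1 in interneurons and below 4 other members in converted cells.

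**Figure D4:**
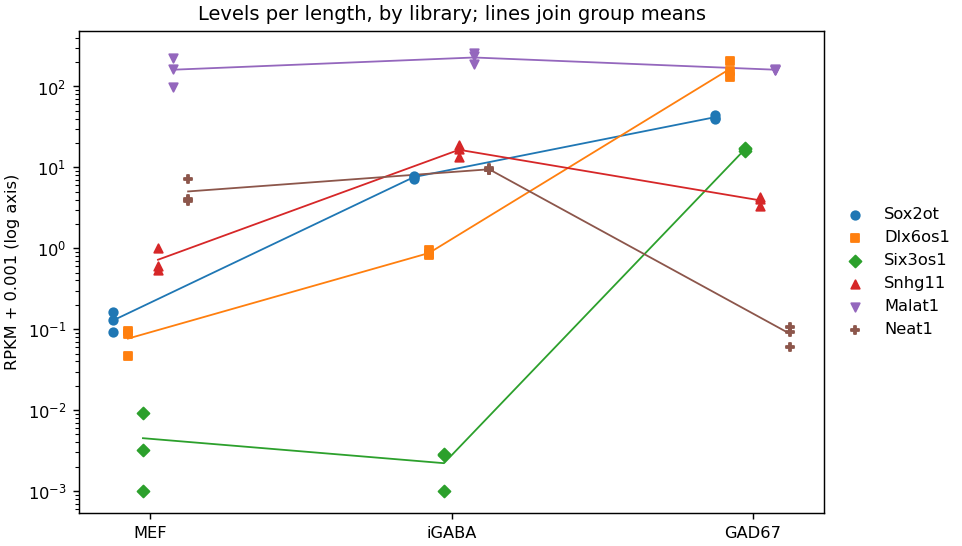
RPKM of the 6 RNAs (log axis) in MEF, iGABA and GAD67 libraries, 1 point per library. Malat1 is near 161 to 228 on average in every group, and Dlx6os1 moves from 0.0755 in MEF to 165 in GAD67.

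Coding genes among the most similar in pattern were taken by the smallest root-mean-square (RMS) difference of gene-centred log2 CPM over the 9 libraries, among 14880 coding genes (14879 for Snhg11, itself typed coding). For Sox2ot they were Rimkla (0.233) and Zswim5 (0.26), for Dlx6os1 Csrnp3 (0.623), and for Six3os1 Sp9 (0.754) and Six3 (0.795). For Snhg11 they were Zmynd10 (0.259) and Igsf5 (0.265), for Malat1 Cbl (0.191) and Gm14410 (0.22), and for Neat1 Serhl (0.297) and Agtrap (0.315). Rimkla, an enzyme gene of N-acetylaspartylglutamate synthesis, averaged 0.152, 14.5 and 68.6 CPM in MEF, iGABA and GAD67 libraries. Serhl averaged 27.4, 43.8 and 0.538 CPM. These are descriptions of 9 libraries in 3 groups.

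Other neural long noncoding RNAs were tested for 9 of 26 listed (13 were in the table). In iGABA against MEF libraries 4 were higher and 5 lower (4 and 3 with library size alone), in GAD67 against MEF 6 and 1, and in iGABA against GAD67 1 and 8. Their medians were -0.48, 6.54 and -6.55 (log2), against 0.05, 0.00 and 0.02 for all tested genes. Of all tested genes, 42.1% were higher and 39.7% lower, then 43.1% and 43.8%, and 41.3% and 39.3%, in these comparisons. Pantr1 and Zfhx2os passed the low-count filter only through the GAD67 libraries, where they had to be higher. The counts and medians of the comparisons with GAD67 include both, so they only describe the list. Sox1ot, the overlapping transcript of Sox1, rose from 0.282 CPM in MEF to 73.7 in iGABA and 479 in GAD67 libraries. Dlx1as, antisense to Dlx1, averaged 0.337, 0.733 and 244 CPM, and Zfhx2os, antisense to Zfhx2, 0.0665, 0.306 and 39.6. Pantr1, beside the neuronal factor gene Pou3f3, averaged 0.234, 0.0933 and 56.4.

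Among other nuclear and chromatin-bound RNAs, 16 of 24 listed were tested (18 in the table). In iGABA against MEF 7 were higher and 6 lower (9 and 5 with library size alone), in GAD67 against MEF 5 and 9, and in iGABA against GAD67 8 and 1 (8 and 0). Their medians were 0.60, -2.10 and 1.18. Of all tested genes, 42.1% were higher and 39.7% lower, then 43.1% and 43.8%, and 41.3% and 39.3%, in these comparisons. H19, an imprinted RNA of embryonic mesenchyme, fell from 12219.5 CPM in MEF to 44.5 in iGABA and 15 in GAD67 libraries. Hotairm1 and Hottip, from the HoxA cluster, averaged 8.13, 6.07 and 0.0271 CPM and 1.2, 0.0489 and 0, with no count in GAD67 libraries for Hottip. Trp53cor1, a p53-induced RNA, was 3.47, 17.8 and 0.0264 CPM, higher in iGABA than in MEF and lower in GAD67.

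Of 19 other small nucleolar RNA host genes, 9 were tested. In iGABA against MEF 2 were higher and 4 lower (3 and 3 with library size alone), in GAD67 against MEF 3 and 6, and in iGABA against GAD67 5 and 3 (6 and 1). Snhg15 averaged 26.8, 23.6 and 4.6 CPM, Snhg9 0.237, 0.224 and 1.02, and Snhg12 79.1, 32.6 and 26.1. Gas5, a host gene of many small nucleolar RNAs, averaged 522 CPM in MEF and 173 in iGABA. Snhg3 (16.1, 27.3 and 6.11 CPM) and Snhg20 (10.2, 17.3 and 13.4 CPM), named after their values were seen, were higher in iGABA than in both other groups, as Snhg11 was. The medians were -0.19, -1.38 and 0.25. Of all tested genes, 42.1% were higher and 39.7% lower, then 43.1% and 43.8%, and 41.3% and 39.3%, in these comparisons.

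Genes for paraspeckle proteins, the partners of Neat1, were mostly higher in interneurons. Of 20, 18 were higher and 0 lower in GAD67 than in MEF (median log2 1.38), where 43.1% of all tested genes were higher. In iGABA 13 were higher and 1 lower than in MEF (0.36, and 19 and 0 with library size alone), where 42.1% of all genes were higher. In iGABA against GAD67 1 was higher and 19 lower (-0.91), where 39.3% of all genes were lower. Sfpq, an essential paraspeckle protein, averaged 197, 281 and 1055.6 CPM in MEF, iGABA and GAD67 libraries. Rbmx, an RNA-binding protein, averaged 47.3, 88.7 and 425, Smarca4, the BRG1 ATPase of SWI/SNF, 164, 306 and 668, and Pspc1, a partner of Sfpq, 39, 29.7 and 122.

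Genes for proteins of nuclear speckles, the bodies that hold Malat1, were also mostly higher in interneurons. Of 20, 17 were higher and 1 lower in GAD67 than in MEF (median 1.07), and 14 were higher and 4 lower in iGABA than in MEF (0.32, and 16 and 1 with library size alone). In iGABA against GAD67 0 were higher and 18 lower (-0.69). Over all tested genes 43.1% were higher and 43.8% lower in GAD67 than in MEF, and 42.1% and 39.7% in iGABA than in MEF. For iGABA against GAD67 the shares were 41.3% and 39.3%. Srsf6, a splicing factor, averaged 135, 187 and 487 CPM, Srsf7 78, 158 and 279, Srsf3 104, 128 and 363, and Acin1, an RNA-processing protein of the exon junction complex, 192, 383 and 735.

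**Figure D5:**
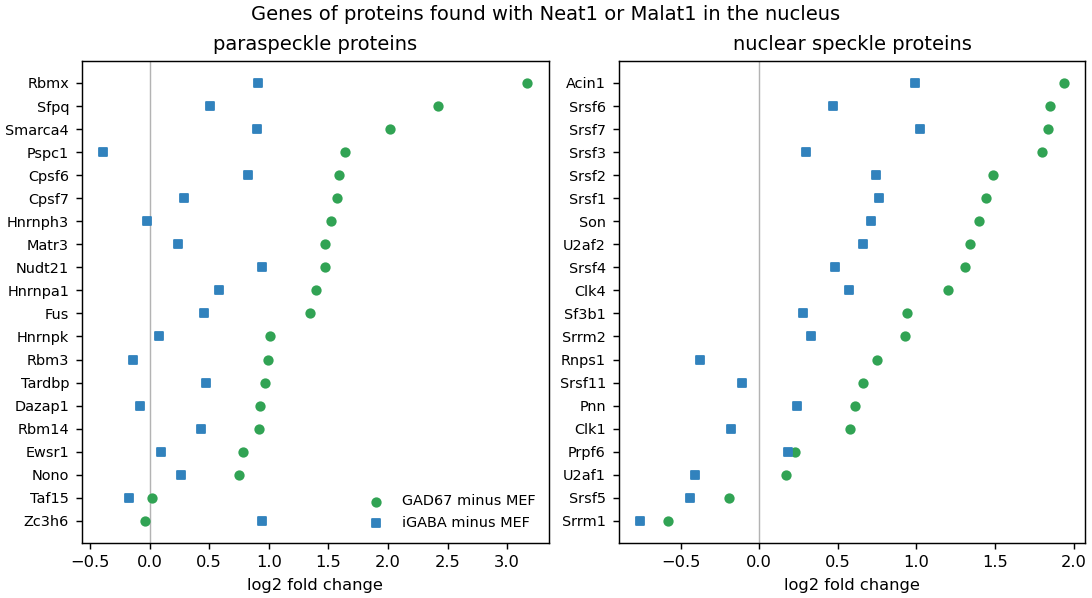
Log2 fold change against MEF of each of the 20 paraspeckle and 20 nuclear speckle protein genes. Each gene has 1 point for GAD67 minus MEF and 1 for iGABA minus MEF, with a line at 0. Medians are 1.38 and 1.07 for GAD67 minus MEF, and 0.36 and 0.32 for iGABA minus MEF.

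Reported protein partners of neural noncoding RNAs (13) were 7 higher and 6 lower in iGABA than in MEF (9 and 3 with library size alone), 10 and 2 in GAD67 than in MEF, and 2 and 10 in iGABA than in GAD67. Celf3, a brain splicing factor, averaged 0.306, 92.2 and 578 CPM in MEF, iGABA and GAD67. Dlx1 and Dlx2, homeobox partners reported for the Dlx6os1 locus, averaged 0.81, 77.3 and 1481.8 and 4.97, 47 and 533. The medians of the list were 0.64, 2.22 and -0.93. Of all tested genes, 42.1% were higher and 39.7% lower, then 43.1% and 43.8%, and 41.3% and 39.3%, in these comparisons. The 4 coding genes at the Sox2ot, Dlx6os1 and Six3os1 loci, Sox2, Dlx5, Dlx6 and Six3, were 3 higher and 0 lower, 4 and 0, and 1 and 3 in these comparisons. Of these, Sox2 and Dlx5 are delivered factors, and Six3 was tested only through the GAD67 libraries.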

How the data were processed

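RNA sequencing measured 9 libraries. The labels record total RNA, a spin-column kit for small samples and strand-marked dUTP libraries. The deposited table held whole-number counts per gene for 9 libraries, with gene positions and exon lengths. The submitters' processing notes name mm10, featureCounts, BWA 0.7.2 and DESeq 1.10.1 as what the authors used. The sources used here do not give the role of each tool, the annotation release or the strand setting. Symbols and exons came from GENCODE vM21, and promoters from RefSeq GRCm38.p6.

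Counts were tested with edgeR 4.0.16 (R 4.3.3), TMM scaling and the filterByExpr filter (counts of at least 10, total of at least 15). It kept 18085 genes. All 9 libraries shared 1 fit, and adjusted p-values are Benjamini-Hochberg values called under 0.05. Log2 CPM for the search of similar genes used a prior count of 2. RPKM was computed from TMM-scaled library sizes and the exon lengths. Ratios of low counts have 95% exact intervals, and these intervals and the floor of 3 counts cover counting error only. Steps were tested on simulated data.

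Named genes were all members, their overlapping or nearest coding genes, the 2 most alike coding genes of each member, and up to 4 genes of each list by size of change among those called in either comparison with MEF. Of these, 1 neighbour and 1 similar gene are not reported here. Members, lists and tests were chosen with earlier results of these data known. Small RNA entries within a member, Xist, Snhg3 and Snhg20 were named after their values were seen. Alternatives were library size alone, RLE and upper-quartile scaling, DESeq2 1.42.0, no low-count filter, only the groups compared, scaling without mitochondrial genes and members, TPM and CPM in place of RPKM, and each replicate left out.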

Additional observations from a re-analysis of the deposited data

How the results depend on the processing

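The count of members higher in iGABA than in MEF went from 5 to 4 in 8 of 16 alternatives, and that higher in iGABA than in GAD67 from 3 to 2 in 8 of 16, each time through Malat1. The other counts over the 6 members kept their values in all 16. Of 15 pairs of members ordered by level, 14 kept their order in iGABA and in GAD67 with CPM in place of RPKM, and 14 in GAD67 without GAD67 replicate 9. Among single members 263 values held, 16 lost a call and 8 turned direction. The turned values were all small differences. For Malat1, GAD67 minus MEF, the log2 difference of -0.01 became 0.21 with library size alone, 0.03 with no low-count filter and 0.02 with only the compared groups, and with a replicate left out 0.30 (MEF replicate 1) or 0.01 (MEF replicate 2, GAD67 replicates 8 and 9), with a range over left-out replicates from -0.25 to 0.30. For Six3os1, iGABA minus MEF, the range over left-out replicates ran from -1.74 to 0.12, the latter without MEF replicate 1. The 16 lost calls were all of Malat1. For Malat1, iGABA minus MEF, the adjusted p was 0.0641 with RLE size factors, 0.133 with DESeq2, 0.0637 with only the compared groups, and 0.0556 to 0.132 without MEF replicates 2 or 3, iGABA replicates 4 or 6 or GAD67 replicate 7, with a log2 range of 0.24 to 0.91 over all alternatives. For Malat1, iGABA minus GAD67, it was 0.0537 with RLE, 0.12 with DESeq2, and 0.0521 to 0.129 without MEF replicate 2, iGABA replicates 4 or 6, or GAD67 replicates 7, 8 or 9. Library size alone changed the genome-wide split of higher and lower calls from 7618 and 7188 to 9941 and 5283 (iGABA minus MEF), and from 7461 and 7108 to 8516 and 6004 (iGABA minus GAD67). Counts for the lists held in 647 recomputed values, rose past 1.5 times in 17, all of counts of 0 or 1 and to at most 3, and fell in 8. With library size alone the lower calls in iGABA minus MEF went from 5 to 3 (neural RNAs), 1 to 0 (paraspeckle), 4 to 1 (speckle) and 6 to 3 (protein partners), and in iGABA minus GAD67 from 3 to 1 (host genes) and 1 to 0 (nuclear RNAs, also without iGABA replicate 6 or GAD67 replicate 7). No paired analysis was possible because replicate numbers 1 to 9 are not shared between groups. Depth limits Six3os1 in MEF and iGABA and Dlx6os1 in MEF libraries, where a handful of reads sets each level.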

Other observations

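Other entries in the member loci also had reads in the interneurons. Dlx6os2, inside the Dlx6os1 span on the same strand and sharing no exon base with it (chr6:6863797-6865150), had 127, 79 and 90 counts in GAD67 libraries, 0, 0 and 3 in iGABA and 0 in MEF libraries, so that GAD67 was at least 79.8-fold higher than MEF, over a floor of 3 counts per group. Gm20515, opposite to Sox2ot in an intron (chr3:34427373-34435097), had 16, 29 and 24 counts in GAD67 libraries and 0 in all others, at least 18.6-fold higher than MEF and 23.4-fold higher than iGABA. An unnamed entry beside Dlx6os2 (ENSMUSG00000095077, chr6:6859855-6860384) had 40, 25 and 50 counts in GAD67 libraries and 0 in all others. This entry and Dlx6os2 lie in introns of Dlx6os1 on the same strand, where unspliced Dlx6os1 RNA would also be counted. The Dlx6os2 fold therefore does not measure Dlx6os2 apart from Dlx6os1. Dlx6os2 also overlaps exons of the coding gene Dlx6, on the opposite strand. MEF replicate 1 had the highest level of its group for 5 of the 6 members, Malat1, Neat1, Snhg11, Sox2ot and Six3os1, the last from 3 counts.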
